A study of Mus musculus with 12 samples.

Results

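The genes described here are 10 genes of glycogen synthesis and breakdown, chosen by symbol (Gyg, Pgm1, Pgm2, Ugp2, Gys1, Gbe1, Ppp1r3b, Ppp1r3c, Pygb and Pygl) from 24770 symbols in the expression table. All 10 were in the table and all 10 passed the filter for testing, which 12311 genes passed. RNA abundance was measured by RNA-seq in wild-type cells of the mouse line GC-2, which the labels call type B spermatogonia, with 3 libraries in each of 4 groups. All cells were grown in serum-containing DMEM under 5% CO2, given either DMSO, the solvent control, or 1 µM MLN4924 in its place, and kept for 24 h in normoxia or in hypoxia at 1% O2. The groups are called DMSO normoxia, DMSO hypoxia, MLN4924 normoxia and MLN4924 hypoxia. MLN4924 inhibits the enzyme that activates the ubiquitin-like protein NEDD8 and so switches off the cullin-RING ubiquitin ligases. GC-2 is 1 immortalised line, and title and cell line name it for all 12 libraries, although the cell type field runs on from GC-2 to a different number for each. Libraries of a group are described as biological replicates by the submitters, with no word on whether separate cultures were used, so the p-values measure the spread between these libraries.

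Glycogen is a branched polymer of glucose kept in the cytosol as a fuel store. Glucose 6-phosphate is turned into glucose 1-phosphate by phosphoglucomutase and then into UDP-glucose, glycogenin starts a chain on itself, glycogen synthase lengthens it and the branching enzyme adds side chains, while glycogen phosphorylase releases glucose 1-phosphate again. Synthase is switched on, and phosphorylase off, by protein phosphatase 1 held on the particle by targeting subunits of the Ppp1r3 family. Low oxygen is known to raise transcripts of several of these genes in other cells through the hypoxia-inducible factors (HIF), which bind DNA at a core of ACGTG or GCGTG, and the HIF alpha subunits are themselves destroyed through a cullin-RING ligase in the presence of oxygen.

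Values are FPKM, fragments per kilobase of transcript scaled to the size of the library, which can be compared between genes because they are per length. Group values are means ± SD of 3 libraries. Changes are differences in log2(FPKM + 1) with the standard error (SE) of a limma fit over all 12 libraries, and rises and falls are named only where the Benjamini-Hochberg adjusted p-value over all tested genes was under 0.05. The added 1 makes changes of genes near 1 FPKM smaller than their ratio of FPKM. In bulk RNA, fewer cells with a transcript and less transcript per cell cannot be told apart.

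DMSO hypoxia replicate 1 stood apart. Values in it summed to 633597 FPKM, whereas the other 11 libraries summed to 530452 to 557779, and across genes its distance from replicates 2 and 3 depended on transcript length (Spearman rho -0.478, against -0.0734 to 0.0509 for the libraries of the other groups). The oxygen check gene Vegfa, a HIF target, rose from 36.5 ± 1.01 to 138.9 ± 8.76 FPKM with hypoxia in DMSO, and the MLN4924 check gene Gclm, a target of the factor NRF2, rose from 57.2 to 158.7 FPKM with MLN4924 in normoxia. Of 11 spermatogonial marker genes listed, 7 were in the table and 2 of these, Gfra1 and Uchl1, averaged at least 1 FPKM, whereas the germ cell genes Ddx4, Kit and Sohlh1 did not exceed 0.06 FPKM in any library. Most listed markers of the labelled cell type were thus missing from the table or low, while Uchl1 stood at 10.8 to 22.4 FPKM. Of 10 markers of spermatocytes and spermatids, 4 were in the table and 0 averaged at least 1 FPKM. They summed to at most 0.35 FPKM in any library. Of 8 fibroblast and peritubular markers 6 averaged at least 1 FPKM, with a summed level of 1222 to 1248 FPKM in DMSO normoxia, 1179 to 1427 in DMSO hypoxia, 1086 to 1103 in MLN4924 normoxia and 1294 to 1354 in MLN4924 hypoxia. Summed Sertoli cell markers, of which Sox9, Wt1 and Gata4 averaged at least 1 FPKM, ranged from 12.8 to 15.6 FPKM in DMSO normoxia, 18.0 to 23.1 in DMSO hypoxia, 6.46 to 9.83 in MLN4924 normoxia and 9.84 to 13.6 in MLN4924 hypoxia. The Leydig cell markers, of which Star alone averaged at least 1 FPKM, summed to 11.3 to 12.1, 2.84 to 6.08, 1.61 to 3.83 and 3.29 to 6.63 FPKM in the same order of groups. Any part of these marker levels in the results below was not tested.

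Promoter sequences are shown for genes that responded strongly and either held or lacked a HIF core motif. RefSeq start sites on build GRCm38.p6 were available by symbol for 9 of the 10 genes, and the 250 bases before each start were searched on both strands for ACGTG and GCGTG. These are the promoters of 5 genes that rose more than 2-fold with hypoxia, with each match in capitals and a match on the opposite strand reading CACGT or CACGC.
Ppp1r3c: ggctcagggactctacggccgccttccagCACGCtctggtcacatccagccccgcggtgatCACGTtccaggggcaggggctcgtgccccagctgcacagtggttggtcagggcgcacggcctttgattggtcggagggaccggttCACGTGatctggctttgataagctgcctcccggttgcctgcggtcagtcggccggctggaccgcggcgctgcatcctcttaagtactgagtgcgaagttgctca
Pgm1: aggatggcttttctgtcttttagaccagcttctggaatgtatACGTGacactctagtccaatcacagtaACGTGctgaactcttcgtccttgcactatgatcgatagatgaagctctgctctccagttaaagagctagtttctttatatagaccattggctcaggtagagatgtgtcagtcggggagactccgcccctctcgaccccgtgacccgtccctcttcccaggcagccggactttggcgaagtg
Pygl: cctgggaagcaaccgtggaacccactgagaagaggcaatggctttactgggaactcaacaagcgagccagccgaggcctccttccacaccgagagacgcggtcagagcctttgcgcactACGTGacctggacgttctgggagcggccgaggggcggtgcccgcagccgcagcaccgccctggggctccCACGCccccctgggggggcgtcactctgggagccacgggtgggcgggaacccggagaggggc
Gys1: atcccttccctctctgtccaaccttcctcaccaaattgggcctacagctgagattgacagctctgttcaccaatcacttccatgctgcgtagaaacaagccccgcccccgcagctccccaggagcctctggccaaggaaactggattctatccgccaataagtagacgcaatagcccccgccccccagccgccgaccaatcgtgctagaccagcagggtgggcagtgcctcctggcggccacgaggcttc
Gbe1: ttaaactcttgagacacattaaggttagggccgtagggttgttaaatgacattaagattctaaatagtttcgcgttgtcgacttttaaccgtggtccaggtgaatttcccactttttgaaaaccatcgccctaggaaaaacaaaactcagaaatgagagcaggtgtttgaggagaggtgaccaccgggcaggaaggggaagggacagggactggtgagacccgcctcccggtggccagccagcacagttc
The windows lie at chr19:36736605-36736854 (minus strand) for Ppp1r3c, chr4:99929201-99929450 (plus strand) for Pgm1, chr12:70227684-70227933 (minus strand) for Pygl, chr7:45434589-45434838 (plus strand) for Gys1 and chr16:70313699-70313948 (plus strand) for Gbe1. The Ppp1r3c window held 3 matches to ACGTG, of which a pair are the 2 strands of 1 CACGTG palindrome at 99 to 104 bases before the start, and 1 match to GCGTG. Pgm1 held 2 matches to ACGTG, at 177 to 181 and 204 to 208 bases before its start, and Pygl held 1 match to each motif. The Pgm1 window was matched by symbol, and the mouse names Pgm1 and Pgm2 were exchanged in older annotations. If the expression table follows the older names, this window belongs to the other gene. Neither motif was found in the windows of Gys1 and Gbe1. ACGTG was present in 16.6% of 32851 mouse promoter windows of this length, and either motif in 38.6%. Among the members, 6 of 9 held ACGTG and 7 of 9 held either, counting Ugp2 once for its 2 windows. They included Pgm2, Pygb and Gyg, of which Pgm2 and Gyg did not pass the test for hypoxia in DMSO and Pygb fell. A match is a string of letters and does not show binding.

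In untreated cells (DMSO normoxia), Pgm1 and Ugp2 were the most abundant of the 10 transcripts. Pgm1, a phosphoglucomutase, stood at 69.0 ± 2.01 FPKM, followed by Ugp2, which makes UDP-glucose, at 37.6 ± 1.61, the synthase Gys1 at 30.6 ± 0.865 and the phosphorylase Pygb, known as the brain form, at 27.8 ± 1.14. Their values did not overlap from each to the next. Pgm2 (16.6 ± 0.911) and glycogenin, Gyg (15.99 ± 0.641), overlapped each other, as did the targeting subunit Ppp1r3c (12.5 ± 0.764) and the branching enzyme Gbe1 (12.3 ± 1.16). At the bottom were the targeting subunit Ppp1r3b (0.777 ± 0.399) and the liver-form phosphorylase Pygl (0.653 ± 0.107), which also overlapped. In DMSO hypoxia the order was Pgm1, Gys1, Ugp2, Ppp1r3c and Gbe1 at the top, where Gys1 overlapped Ugp2, Ugp2 overlapped Ppp1r3c, and Ppp1r3c overlapped Gbe1. Both overlaps of Ugp2 came from replicate 1, with Gys1 at 69.01, Ugp2 at 72.75 and Ppp1r3c at 49.5 FPKM. In replicates 2 and 3 Gys1 had 88.27 and 92.28 FPKM, Ugp2 49.05 and 51.9, and Ppp1r3c 42.62 and 44.86. Gbe1 lay below Pygb, Pgm2 and Gyg in DMSO normoxia and above all 3 of those genes in DMSO hypoxia.

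**Figure D1:**
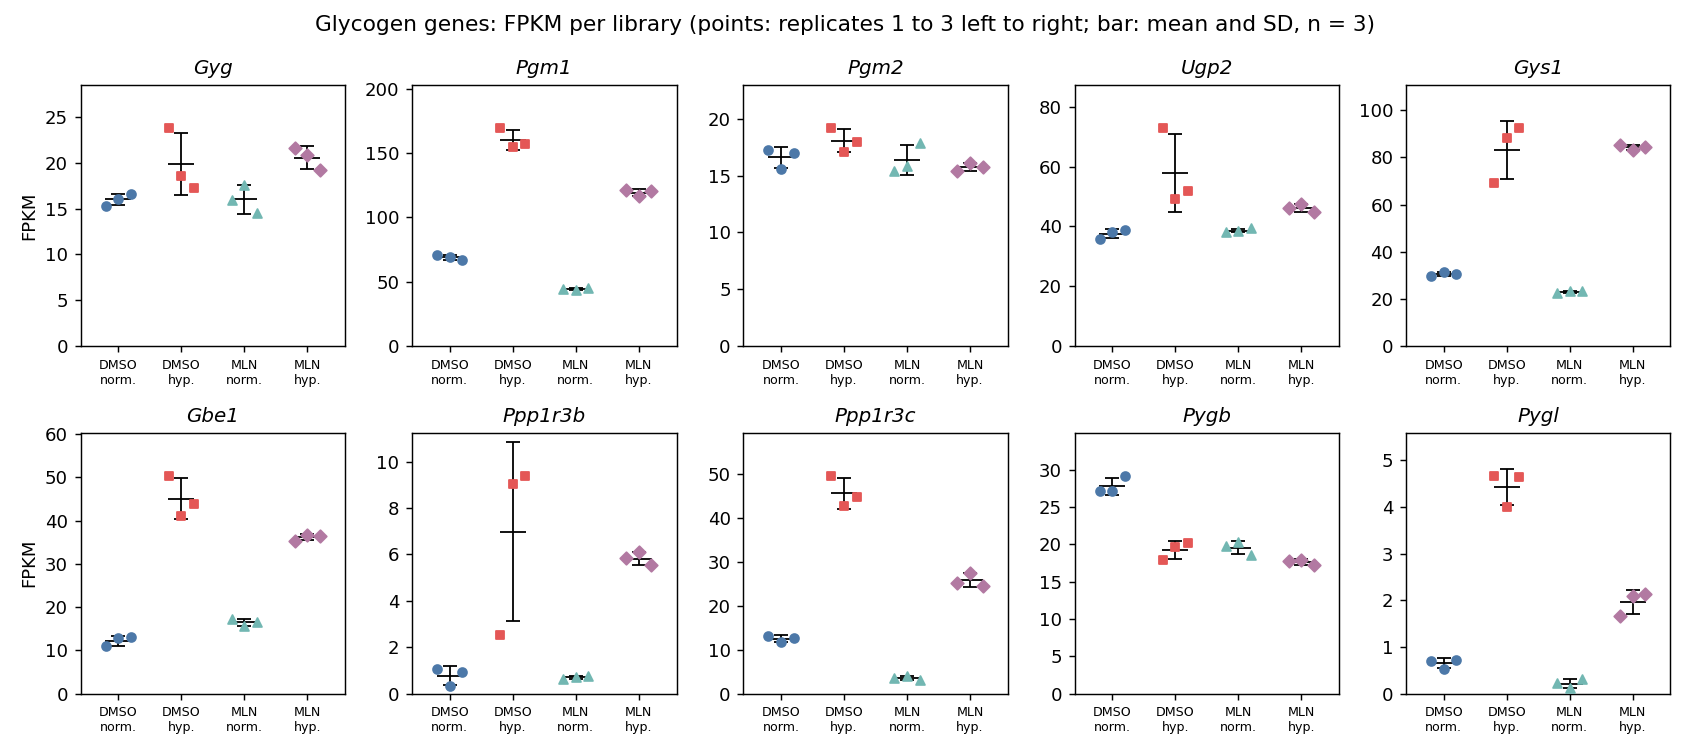
FPKM of the 10 genes in every library, 1 panel per gene with its own linear axis from 0, with points for the 3 replicates of each group and bars for mean and SD. Hypoxia libraries lie above the normoxia libraries of the same treatment for Gyg, Pgm1, Ugp2, Gys1, Gbe1, Ppp1r3b, Ppp1r3c and Pygl. DMSO hypoxia replicate 1 lies apart for Ppp1r3b (2.53 FPKM), Gys1 (69.01) and Ugp2 (72.75).

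Hypoxia in DMSO raised 7 of the 10 genes and lowered 1, against 13.8% of all tested genes that rose, 19.4% that fell and 33.2% that did either. Of all called genes 41.5% rose, or 52.0% with median-of-ratios scaling. The median log2 change of the 10 genes was 1.30, and that of all tested genes was -0.08. The 2 genes that did not pass were Gyg and Pgm2. Of the genes that rose, Pygl did not exceed 0.72 FPKM in normoxia, and Ppp1r3b reached 1 FPKM in 1 normoxia library (1.06). Both passed the filter for testing through their hypoxia libraries, which favours a rise. The same holds for these genes in the later counts of rises with hypoxia.

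Among the genes that supply glucose for the chain, Pgm1 stood at 70.92, 69.15 and 66.9 FPKM in the DMSO normoxia libraries and at 169.2, 154.61 and 157.27 in DMSO hypoxia. The groups were far apart, with a log2 change of 1.20 ± 0.05 (adjusted p = 8.29e-08). Pgm2, a related enzyme with activity on other sugar phosphates, had 17.24, 15.56 and 17.01 FPKM in normoxia and 19.15, 17.11 and 18 in hypoxia. These ranges overlapped, and its change of 0.12 ± 0.07 did not pass (adjusted p = 0.244), nor did that of 0.08 without DMSO hypoxia replicate 1 (adjusted p = 0.432). The mouse names Pgm1 and Pgm2 were exchanged in older annotations, and they are used here as the table gives them. Ugp2 rose from 35.77, 38.15 and 38.84 to 72.75, 49.05 and 51.9 FPKM, a log2 change of 0.59 ± 0.12 (adjusted p = 0.00373). The first hypoxia library was the highest, and without it the change was 0.42 ± 0.05 (adjusted p = 0.000105).

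Of the genes that build the polymer, Gys1 and Gbe1 rose and Gyg did not pass the test. Gys1, the muscle-type synthase found in most tissues, stood at 29.88, 31.56 and 30.36 FPKM in DMSO normoxia and at 69.01, 88.27 and 92.28 in DMSO hypoxia. Every hypoxia library was more than 2 times any normoxia library, and the log2 change was 1.40 ± 0.09 (adjusted p = 2.56e-06). Gbe1, which makes the branches, rose from 10.93, 12.83 and 13.04 to 50.26, 40.97 and 43.9 FPKM, a 3.67-fold higher mean (log2 change 1.79 ± 0.09, adjusted p = 3.08e-07). Gyg, the primer, had 15.33, 16.03 and 16.61 FPKM in normoxia and 23.74, 18.59 and 17.29 in hypoxia. The Gyg groups did not overlap, as was so for 9 of the 10 members and for 45.2% of all tested genes, but its change of 0.29 ± 0.11 did not pass (adjusted p = 0.0726). It passed when libraries were scaled by the median of ratios (0.35, adjusted p = 0.0343) and when replicate 3 of DMSO hypoxia was left out (0.37, adjusted p = 0.0320), whereas without replicate 1 the change was 0.16 (adjusted p = 0.166).

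Both targeting subunits of protein phosphatase 1 rose with hypoxia. Ppp1r3c, also called PTG, rose from 13.18, 11.68 and 12.68 to 49.5, 42.62 and 44.86 FPKM, a log2 change of 1.79 ± 0.09 (adjusted p = 3.55e-07). Ppp1r3b, known from liver as GL, had 1.06, 0.32 and 0.95 FPKM in normoxia and 2.53, 9.05 and 9.37 in hypoxia. The lowest of these hypoxia values was again replicate 1, yet all 3 exceeded the normoxia libraries. The log2 change of Ppp1r3b was 2.04 ± 0.35 (adjusted p = 0.00154), and 2.55 ± 0.17 without replicate 1 (adjusted p = 3.60e-06).

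The phosphorylases moved in opposite directions. Pygb fell from 27.14, 27.15 and 29.12 to 17.91, 19.62 and 20.14 FPKM, a log2 change of -0.51 ± 0.06 (adjusted p = 0.000178). Pygl rose from 0.71, 0.53 and 0.72 to 4.66, 3.99 and 4.64 FPKM. The ratio of the Pygl means was 6.78, and the log2 change on the FPKM + 1 scale was 1.72 ± 0.12 (adjusted p = 3.72e-06), or 2.60 with 0.1 added in place of 1. Pygb nevertheless remained the more abundant, at 19.2 against 4.43 FPKM in DMSO hypoxia.

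**Figure D2:**
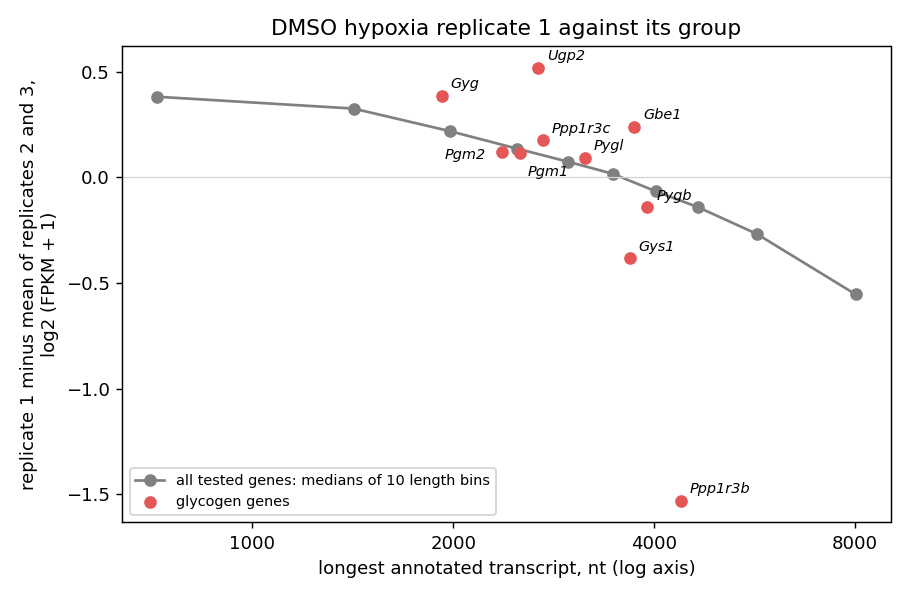
Difference of DMSO hypoxia replicate 1 from the mean of replicates 2 and 3 in log2(FPKM + 1), against the longest annotated transcript of each gene on a log axis, for the 10 genes (red) and as medians of 10 length bins of all tested genes (grey). The bins run from 0.38 for the shortest to -0.55 for the longest transcripts, and Ppp1r3b lies at -1.53, Gys1 at -0.38 and Ugp2 at 0.52.

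The library that stands apart did not move all 10 genes alike. It differed from its group by -1.53 for Ppp1r3b, whose longest annotated transcript of 4386 nt was the longest among the 10, by -0.38 for Gys1 (3678 nt), by 0.39 for Gyg (1922 nt, the shortest) and by 0.52 for Ugp2 (2683 nt). Pgm1, Pgm2, Pygl, Pygb, Ppp1r3c and Gbe1 differed by -0.14 to 0.24. Without it, hypoxia in DMSO still raised 7 members and lowered 1. Transcript lengths were taken by symbol from GENCODE M21, where 97.5% of tested genes had one.

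MLN4924 in normoxia had an uneven effect, with 5 members falling and 1 rising, against 10.7% and 9.33% of all tested genes and 20.0% in either direction. The groups did not overlap for 6 of the 10, as for 48.5% of all tested genes. Ppp1r3c showed the largest change, from 13.18, 11.68 and 12.68 FPKM in DMSO to 3.67, 3.95 and 3.15 in MLN4924. The highest inhibitor library was far below the lowest control library. Its log2 change was -1.56 ± 0.09 (adjusted p = 1.78e-06). Pgm1 fell from 69.0 ± 2.01 to 44.4 ± 0.771 FPKM (-0.63 ± 0.05, adjusted p = 1.67e-05), and Pygb fell from 27.8 ± 1.14 to 19.6 ± 0.884 (-0.49 ± 0.06, adjusted p = 0.000391), about to its level in DMSO hypoxia. Gys1 fell from 30.6 ± 0.865 to 23.0 ± 0.511 (-0.40 ± 0.09, adjusted p = 0.0116), and lost the call when libraries were rescaled to equal totals (adjusted p = 0.0548).

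Gbe1 was the exception, with 10.93, 12.83 and 13.04 FPKM in DMSO normoxia and 17.3, 15.61 and 16.58 in MLN4924 normoxia. All 3 inhibitor libraries were above the controls, and the log2 change was 0.40 ± 0.09 (adjusted p = 0.00867). Pygl fell from 0.71, 0.53 and 0.72 to 0.23, 0.12 and 0.31 FPKM (-0.44 ± 0.12, adjusted p = 0.0242). All these Pygl values were under 1 FPKM, and the call ended without either of DMSO normoxia replicates 1 and 3 (adjusted p = 0.0801 and 0.0819), without either of MLN4924 normoxia replicates 1 and 2 (0.0621 and 0.0885), and with no filter on low values (0.0542). Ugp2, Pgm2, Ppp1r3b and Gyg had changes of 0.04 ± 0.12, -0.02 ± 0.07, -0.02 ± 0.35 and -0.00 ± 0.11, none of which passed. The error for Ppp1r3b is wide because the spread is shared with the DMSO hypoxia libraries.

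MLN4924 in hypoxia lowered 4 members and raised 0, against 13.3% and 12.2% of all tested genes and 25.5% in either direction. The groups did not overlap for 6 of the 10, as for 38.0% of all tested genes. Ppp1r3c fell from 49.5, 42.62 and 44.86 FPKM to 25.23, 27.59 and 24.53, with no overlap and a log2 change of -0.80 ± 0.09 (adjusted p = 0.000149). Pgm1 fell from 160.4 ± 7.77 to 119.4 ± 2.61 FPKM (-0.42 ± 0.05, adjusted p = 0.000193). Pygl fell from 4.66, 3.99 and 4.64 to 1.67, 2.09 and 2.14 FPKM (-0.87 ± 0.12, adjusted p = 0.000482), less than its gain from hypoxia, so that it stayed above the 0.653 of untreated cells. Gbe1 fell from 45.0 ± 4.75 to 36.2 ± 0.756 FPKM (-0.30 ± 0.09, adjusted p = 0.0282), a call that ended when any of the 3 MLN4924 hypoxia libraries was left out (adjusted p = 0.0852, 0.0623 and 0.0704 without replicates 1, 2 and 3) and in a fit of these 6 libraries alone (adjusted p = 0.0925).

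Gys1 in hypoxia with the inhibitor stood at 85.27, 83.14 and 84.42 FPKM, within the DMSO hypoxia range of 69.01 to 92.28. Its change was 0.03 ± 0.09 (adjusted p = 0.843), and -0.10 ± 0.04 without DMSO hypoxia replicate 1 (adjusted p = 0.0828). Ppp1r3b had 5.84, 6.1 and 5.53 FPKM, between the lowest and the other DMSO hypoxia libraries. Its change of -0.07 ± 0.35 became -0.58 ± 0.17 without that replicate and then passed (adjusted p = 0.0272). Pygb likewise went from -0.12 ± 0.06 (adjusted p = 0.198) to -0.17 without it (adjusted p = 0.0382), so that 6 members fell. Ugp2, Pgm2 and Gyg had changes of -0.30 ± 0.12, -0.19 ± 0.07 and 0.06 ± 0.11 that did not pass. For Ugp2 the call appeared with libraries rescaled to equal totals (-0.25, adjusted p = 0.0368) and when the second library of DMSO hypoxia was left out (-0.41, adjusted p = 0.0281), while leaving out the first gave -0.13 (adjusted p = 0.0643). Gyg moved to 0.19 without that first library (adjusted p = 0.116).

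**Figure D3:**
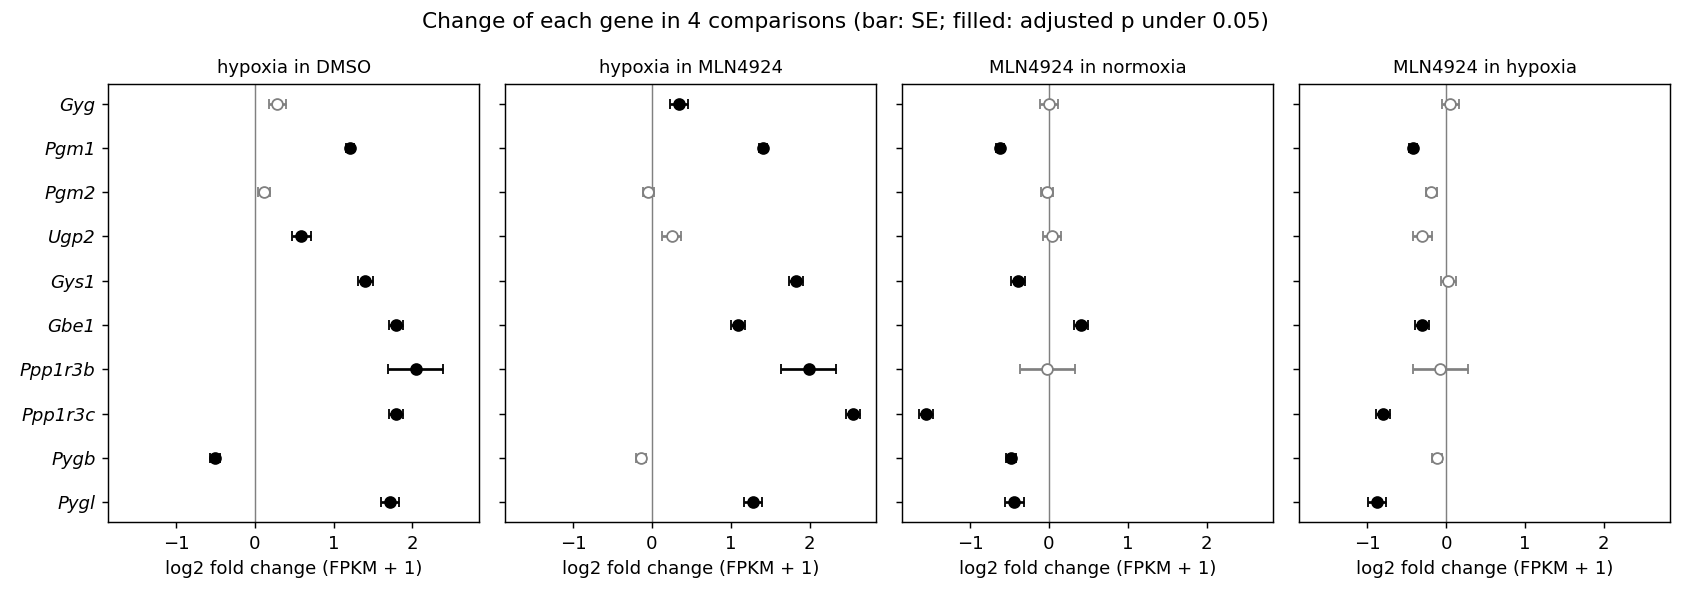
Log2 change on the FPKM + 1 scale with its SE for each gene in 4 comparisons, filled where the adjusted p was under 0.05. Under hypoxia most points lie to the right of 0, and under MLN4924 in normoxia Ppp1r3c lies farthest left at -1.56 and Gbe1 is the filled point right of 0, at 0.40.

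With MLN4924 present, hypoxia raised 7 members and lowered 0, against 11.7% and 16.5% of all tested genes and 28.2% in either direction. The groups did not overlap for 9 of the 10, all but Pgm2, as for 53.3% of all tested genes. Ppp1r3c rose from 3.59 ± 0.406 to 25.8 ± 1.60 FPKM, a 7.18-fold higher mean (log2 change 2.55 ± 0.09, adjusted p = 3.62e-08). Gys1 rose 3.66-fold, from 22.41, 23.28 and 23.31 FPKM to the values given above (1.83 ± 0.09, adjusted p = 6.31e-07). Pgm1 rose from 44.4 ± 0.771 to 119.4 ± 2.61 FPKM (1.41 ± 0.05), Gbe1 from 16.5 ± 0.848 to 36.2 ± 0.756 (1.09 ± 0.09) and Ppp1r3b from 0.65, 0.73 and 0.78 to 5.84, 6.1 and 5.53 (1.99 ± 0.35, adjusted p = 0.00212). Pygl rose from 0.220 ± 0.0954 to 1.97 ± 0.258 FPKM (1.28 ± 0.12, adjusted p = 3.41e-05).

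Gyg passed in this comparison at 0.34 ± 0.11 (adjusted p = 0.0415), from 15.93, 17.59 and 14.49 to 21.63, 20.84 and 19.19 FPKM. The call is a marginal one. It ended with no filter on low values (adjusted p = 0.0745) and in 8 of the 12 fits that left out 1 library, namely without any of the 3 MLN4924 hypoxia libraries (0.122, 0.108 and 0.0573), any of the 3 DMSO normoxia libraries (0.0559, 0.0590 and 0.0568), or MLN4924 normoxia replicate 1 or 3 (0.0996 and 0.143). Ugp2 (0.25 ± 0.12, adjusted p = 0.149), Pygb (-0.14 ± 0.06, adjusted p = 0.120) and Pgm2 (-0.05 ± 0.07, adjusted p = 0.688) did not pass. Without DMSO hypoxia replicate 1, whose spread enters the shared error, Ugp2 passed as rising (adjusted p = 0.00108) and Pygb as falling (adjusted p = 0.0347).

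Whether the inhibitor changed the hypoxia response was tested by an interaction term, taken as the log2 effect of hypoxia in MLN4924 less its log2 effect in DMSO. It was called upward for 1 member and downward for 1, against 0.958% and 0.926% of all tested genes and 1.88% in either direction. For Ppp1r3c the difference was 0.76 ± 0.13 (adjusted p = 0.0150), with a hypoxia effect of 2.55 with MLN4924 and 1.79 with DMSO. Ppp1r3c was lower with MLN4924 at both oxygen levels, and by more in normoxia. For Gbe1 the difference was -0.70 ± 0.12 (adjusted p = 0.0190), with effects of 1.09 and 1.79. Mean Gbe1 was higher with MLN4924 in normoxia and lower with it in hypoxia. The Gbe1 interaction call ended without MLN4924 hypoxia replicate 1 or 3 (adjusted p = 0.0614 and 0.0571) or MLN4924 normoxia replicate 1 or 3 (0.0654 and 0.0592).

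For the other 8 members the interaction did not pass. Gys1 had 0.43 ± 0.13 (adjusted p = 0.150), Pygb 0.37 ± 0.09 (0.0741) and Pgm1 0.20 ± 0.07 (0.197). Without DMSO hypoxia replicate 1 these 3 passed, at 0.30 (adjusted p = 0.0107), 0.32 (0.0320) and 0.24 (0.0188), which made 4 members rising and 1 falling. Pygl had -0.43 ± 0.17 (adjusted p = 0.261), and with 0.1 added in place of 1 it was 0.13 (adjusted p = 0.887). Its ratio of mean FPKM between hypoxia and normoxia was 6.78 with DMSO and 8.94 with MLN4924, so for this low gene the sign of the difference depended on the scale. Ugp2, Pgm2, Ppp1r3b and Gyg had -0.34 ± 0.17, -0.16 ± 0.10, -0.05 ± 0.50 and 0.06 ± 0.16. Without that replicate Ugp2 moved to -0.17 (adjusted p = 0.185), Ppp1r3b to -0.56 (0.223) and Gyg to 0.19 (0.411), and none of these passed.

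**Figure D4:**
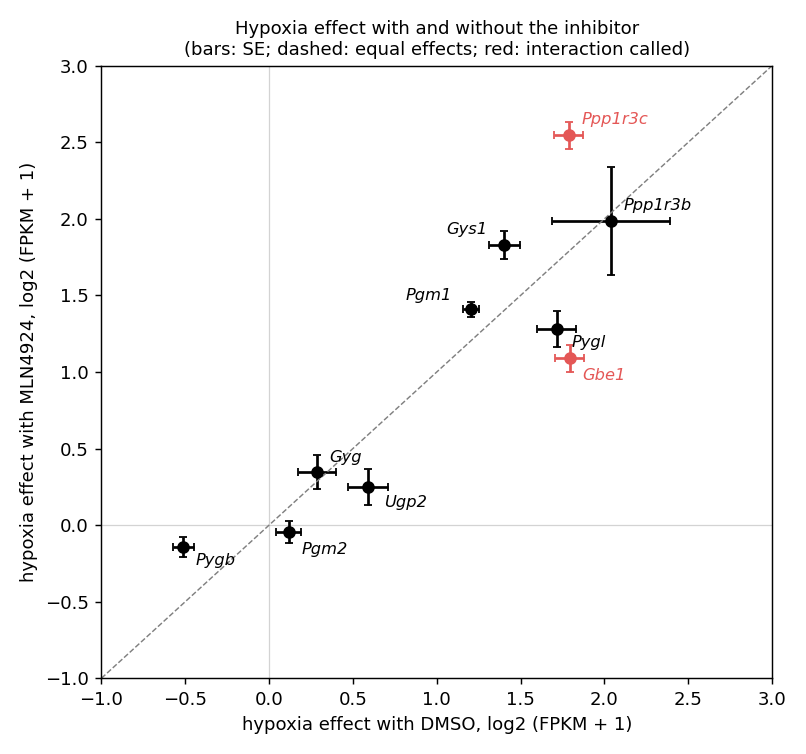
Hypoxia effect with DMSO (horizontal) against hypoxia effect with MLN4924 (vertical) for each gene, in log2(FPKM + 1) with SE bars, with a dashed line where both are equal. These axes share no library. Ppp1r3c lies above the line (1.79 and 2.55) and Gbe1 below it (1.79 and 1.09), both in red for a called interaction, while Ppp1r3b lies on it with wide bars.

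Cells given both hypoxia and MLN4924 were also compared with untreated cells, a comparison that shares its libraries with those above. Here 7 members rose and 1 fell, against 14.6% and 21.2% of all tested genes and 35.8% in either direction. Of all called genes 40.7% rose, or 51.1% with median-of-ratios scaling. The groups did not overlap for 9 of the 10, as for 58.0% of all tested genes. On the log2(FPKM + 1) scale the largest rises were those of Ppp1r3b (1.97 ± 0.35), Gbe1 (1.49 ± 0.09) and Gys1 (1.43 ± 0.09, adjusted p = 1.41e-06). Ppp1r3c rose 2.06-fold and Pgm1 1.73-fold in mean FPKM, and Pygl, which rose by 0.84 ± 0.12 with 1 FPKM added, had a 3.01-fold higher mean against 2.95-fold for Gbe1. Pygb fell by 0.63 ± 0.06 on the log2 scale, to 17.6 ± 0.358 FPKM, its lowest group mean. Gyg passed at 0.34 ± 0.11 (adjusted p = 0.0348) and lost the call without MLN4924 hypoxia replicate 1 or 2 (adjusted p = 0.106 and 0.0895), without any of the DMSO normoxia libraries (0.103, 0.0805 and 0.0615) and with no filter (0.0614). Ugp2 (0.29 ± 0.12, adjusted p = 0.0843) did not pass with all libraries and passed without DMSO hypoxia replicate 1 (adjusted p = 0.000323).

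The balance between enzymes of the same step was described from the FPKM sums, with no test. Pygl made up 2.27% ± 0.317 of the summed FPKM of the phosphorylases Pygb, Pygl and Pygm in DMSO normoxia and 18.8% ± 1.87 in DMSO hypoxia. With MLN4924 the share was 1.10% ± 0.526 in normoxia and 9.96% ± 1.27 in hypoxia, so that no 2 groups at different oxygen levels overlapped. Pygm, the muscle form, was listed at 0 in all 3 DMSO hypoxia libraries and reached at most 0.86 FPKM elsewhere. The summed phosphorylase level was 28.7 ± 1.30 FPKM in DMSO normoxia, 23.7 ± 1.11 in DMSO hypoxia, 20.3 ± 1.06 in MLN4924 normoxia and 19.7 ± 0.242 in MLN4924 hypoxia. The log2 ratio of Gys1 to Pygb plus Pygl was 0.11 ± 0.08 in DMSO normoxia and 0.22 ± 0.07 in MLN4924 normoxia, and 1.80 ± 0.17 and 2.11 ± 0.04 in the corresponding hypoxia groups. Transcripts of synthase and phosphorylase were thus near parity in normoxia and far apart in hypoxia with either treatment.

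Of the targeting subunits, 5 were in the table, and their summed FPKM was 17.1 ± 0.715 in DMSO normoxia, 57.3 ± 2.45 in DMSO hypoxia, 7.21 ± 0.268 in MLN4924 normoxia and 34.9 ± 2.23 in MLN4924 hypoxia. Ppp1r3c held 73.0% ± 2.31 of that sum in DMSO normoxia and 49.8% ± 6.25 in MLN4924 normoxia, where the share of Ppp1r3e, a subunit at 2.22 FPKM in that group, reached 30.7% ± 5.77. In hypoxia Ppp1r3c held 79.9% ± 8.08 with DMSO and 73.8% ± 0.883 with MLN4924. The share in DMSO hypoxia was 89.2% in replicate 1, the library that stands apart, and 75.8% and 74.7% in replicates 2 and 3. Pgm1 made up 80.6% ± 0.961 of Pgm1 plus Pgm2 in DMSO normoxia, 89.9% ± 0.156 in DMSO hypoxia, 73.1% ± 1.45 in MLN4924 normoxia and 88.3% ± 0.441 in MLN4924 hypoxia. The branching enzyme against the synthase, as log2 of Gbe1 over Gys1, was -1.32 ± 0.12 in DMSO normoxia and -0.48 ± 0.10 in MLN4924 normoxia. In hypoxia this ratio was -0.88 ± 0.37 with DMSO and -1.22 ± 0.05 with MLN4924. DMSO hypoxia replicate 1 had -0.46, whereas replicates 2 and 3 had -1.11 and -1.07.

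**Figure D5:**
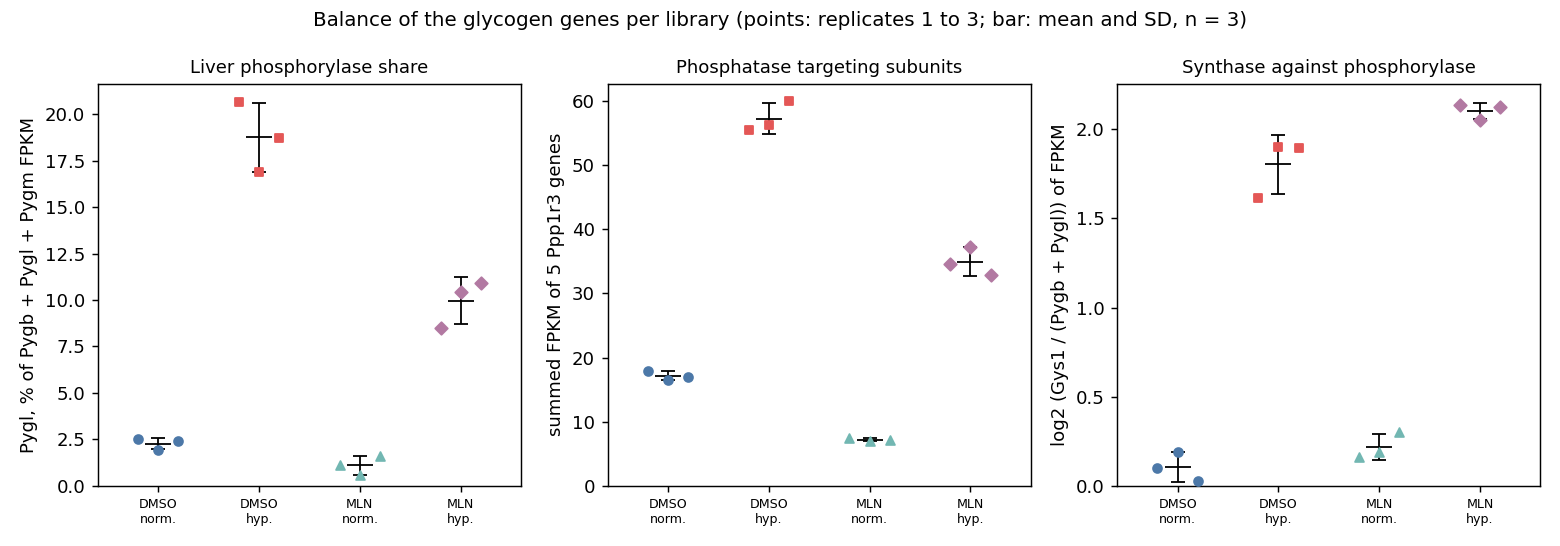
Pygl as a percentage of phosphorylase FPKM, the summed FPKM of the 5 Ppp1r3 genes and the log2 ratio of Gys1 to Pygb plus Pygl, per library with mean and SD of each group, on axes from 0. The Pygl share is highest in DMSO hypoxia (18.8%), the Ppp1r3 sum is lowest in MLN4924 normoxia (7.21 FPKM), and the synthase ratio is highest in MLN4924 hypoxia (2.11).

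Other genes of the pathway were taken from a list of 41, of which 34 were in the table and 28 were tested. With hypoxia in DMSO 11 of the 28 rose and 0 fell, with a median log2 change of 0.20, where 13.8% of all tested genes rose and 19.4% fell. Stbd1, a starch-binding protein that tethers glycogen to membranes, had the largest rise on the log2(FPKM + 1) scale, from 8.64 ± 1.37 to 38.2 ± 5.36 FPKM (2.03 ± 0.12, adjusted p = 1.12e-06), and the glucose transporter Slc2a1 rose from 63.4 ± 1.58 to 173 ± 28.5 (1.42 ± 0.10, adjusted p = 4.11e-06). Of the 6 tested genes for phosphorylase kinase, debranching and lysosomal breakdown, 0 rose and 0 fell. DMSO hypoxia replicate 1 was the lowest of its group for each of these genes. It had 18.39 FPKM for Gaa, against 39.94 and 44.55 in replicates 2 and 3 and 49.78 to 57.11 in DMSO normoxia. For Phkb it had 17.82, against 30.3 and 32.12, and 25.35 to 26.38 in DMSO normoxia. Calls of these genes without that library were not examined. Of the 7 tested genes listed with the synthase, glycogenin and their regulators 2 rose, and Stbd1 was 1 of these. Of the 6 genes for other uses of UDP-glucose and for galactose entry 4 rose. Epm2a, the laforin phosphatase that acts on glycogen, was the 1 tested gene of glycogen quality control. It rose from 0.120 ± 0.0265 to 1.88 ± 0.0950 FPKM (1.36 ± 0.11, adjusted p = 1.37e-05), a ratio of means of 15.7 against 4.42 for Stbd1. Normoxia libraries of Epm2a did not exceed 0.14 FPKM, so it passed the filter of 1 FPKM through its hypoxia libraries alone. The filter thus favoured a rise, and the ratio rests on a level near 0. The other listed gene of quality control, Nhlrc1, at 0.480 and 0.377 FPKM in DMSO normoxia and hypoxia, was not tested.

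With MLN4924 in normoxia 0 of these 28 genes rose and 4 fell, where 9.33% of all tested genes rose and 10.7% fell, so the number that fell was near the background. Among those that fell was Gpi1, which interconverts hexose phosphates (-0.58 ± 0.05, adjusted p = 5.08e-05). With MLN4924 in hypoxia 2 rose and 7 fell, where 12.2% of all tested genes rose and 13.3% fell. Epm2a fell from 1.88 to 0.910 FPKM (-0.60 ± 0.11, adjusted p = 0.00341). It passed the filter mainly through the DMSO hypoxia libraries (1.79 to 1.98 FPKM, against 0.79 to 1.12 in MLN4924 hypoxia), which favours a fall here. The genes that rose were Phkg2, a catalytic subunit of phosphorylase kinase (0.56 ± 0.16, adjusted p = 0.0260), and Uggt1, which uses UDP-glucose in glycoprotein folding (0.33 ± 0.08). Stbd1 stood at 37.6 ± 2.34 FPKM in MLN4924 hypoxia, a change of -0.02 ± 0.12 from DMSO hypoxia that did not pass.

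For the 3 members with the widest range of group means, the genes with the most similar values were found by the root mean square distance over the 12 libraries in log2(FPKM + 1), with each gene centred on its own mean, among genes of at least 5 FPKM in their highest group. Ppp1r3c, with a range of 3.35, lay nearest to Bhlhe40, a transcriptional repressor, at a distance of 0.11 against a median of 1.30 over 8826 genes, and next to Bnip3, a mitophagy receptor, at 0.23. Bhlhe40 had means of 31.2, 125.2, 10.9 and 61.8 FPKM in DMSO normoxia, DMSO hypoxia, MLN4924 normoxia and MLN4924 hypoxia, and Ppp1r3c 12.5, 45.7, 3.59 and 25.8. Pygl, with a range of 2.15, lay nearest to the glycolytic genes Pfkp (0.14) and Aldoc (0.15). Ppp1r3b, with a range of 2.06, lay nearest to Slc2a1 (0.39) and Gys1 (0.40), at distances that were larger for these neighbours than for those of Ppp1r3c and Pygl. Of the other members, the closest to Ppp1r3c was Pygl (0.53) and the closest to Pygl was Pgm1 (0.22). The added 1 FPKM shrinks the changes of Pygl and Ppp1r3b, so these distances understate differences in fold change. With hypoxia in DMSO mean Pygl went from 0.653 to 4.43 FPKM, Pfkp from 23.7 to 78.2, Aldoc from 1.81 to 9.54 and Pgm1 from 69.0 to 160.4. Mean Ppp1r3b went from 0.777 to 6.98 FPKM, Slc2a1 from 63.4 to 173.0 and Gys1 from 30.6 to 83.2.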

How the data were processed

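The authors deposited 1 table of FPKM values per gene symbol with a column for each of the 12 libraries. Per the submitters' processing notes, fastp, STAR and RSEM 1.3.3 were used with genome build mm39; the annotation and strandedness are not given in the sources used here. Per the labels, reads were paired and 150 nt long. FPKM hold no read counts, so sequencing depth is unknown and no counting interval is given; 45 low genes with nearly constant non-zero values gave relative depths of 0.967 to 1.02, a range narrowed by that choice of genes.

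The filter for testing was 1 FPKM or more in 3 or more libraries. Tests were made with limma 3.58.1 in R 4.3.3 on log2(FPKM + 1), with 1 mean per group, a trended prior variance, 8 residual degrees of freedom and two-sided p-values with Benjamini-Hochberg adjustment across 12311 genes in each of 6 comparisons. An exact test of 3 against 3 libraries cannot go below 0.1. All 10 members are named. Of the other pathway genes, the 2 largest called rises and falls are named for hypoxia in DMSO and for MLN4924 at each oxygen level, except for 1 gene not reported here; Epm2a in hypoxia with DMSO, Pygm and Ppp1r3e were singled out after their values were seen. The members and lists were chosen with earlier results of these data known. Alternatives were another pseudocount, no filter, 2 other scalings, a replicate block, no trend, array weights, fits of the compared groups alone and leaving out each library. For single genes they were examined among the members only. Symbols were matched to RefSeq promoters (GRCm38.p6) and to GENCODE M21 lengths, neither of which is of the authors' build, so no position in mm39 is given. Ppp1r3b is not among the promoter sequences shown.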

Additional observations from a re-analysis of the deposited data

Results flagged for a closer look

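The hypoxia effect differed between cells with MLN4924 and cells with DMSO, by limma's test of the interaction, for 2 members and for 1 other gene of the pathway list. For Ppp1r3c the difference was 0.76 (log2, adjusted p = 0.0150), and over 19 alternatives it ran from 0.69 to 0.96 with adjusted p from 0.00207 to 0.0497. For Gbe1 it was -0.70 (adjusted p = 0.0190), with adjusted p from 0.00315 to 0.0654 over its alternatives. For Ugdh, which turns UDP-glucose into UDP-glucuronate and was singled out after its values were seen, it was -0.45 (adjusted p = 0.0360). Ugdh had 80.2 ± 1.72 FPKM in DMSO normoxia and 158.3 ± 13.8 in DMSO hypoxia, and 81.3 ± 1.17 and 117.1 ± 5.74 with MLN4924. In DMSO hypoxia its highest library was replicate 1 (173.89 FPKM, against 147.67 and 153.22). The Ugdh call was not examined under the alternatives. Interaction calls were made for 1.88% of all tested genes.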

How the results depend on the processing

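Of 1188 alternative values for single members, 1131 kept their direction or stayed uncalled on the same side of the threshold, 31 lost and 26 gained a call, and 0 reversed while called. Many alternatives leave the means of the compared groups unchanged, such as leaving out a library of another group or adding a replicate block. In those the log2 change could not move and only the call could, so the kept direction was fixed in advance. Counts of called genes moved by more than 1.5 times as follows. A fit of the compared groups alone called 2288 genes in place of 4093 for hypoxia in DMSO, 4095 in place of 2467 for MLN4924 in normoxia and 1290 in place of 3137 for MLN4924 in hypoxia. Array weights gave 4524 genes for MLN4924 in normoxia, 5339 in place of 3473 for hypoxia in MLN4924, and 843 in place of 232 for the interaction. With these weights 7 members fell for MLN4924 in hypoxia, 1 fell for hypoxia in MLN4924 and 4 rose for the interaction. Leaving out 1 library at a time gave 1650 to 4212 genes for MLN4924 in normoxia, 2524 to 5231 for hypoxia in MLN4924 and 90 to 678 for the interaction, with the highest counts, 4212, 5231 and 678, all without DMSO hypoxia replicate 1. In these fits 0 to 1 members fell for hypoxia in MLN4924, and 1 to 4 rose and 0 to 1 fell for the interaction. Same-numbered libraries of different groups did not deviate together (r from -0.07 to 0.10 over 18 pairs), and 4 of 12 libraries correlated best with their own number. No pairing by number was thus seen. This cannot show that the numbers carry no pairing, because libraries handled together need not deviate together. A replicate block gave 132 interaction genes and 0 falling members, with Gbe1 at -0.70 (adjusted p = 0.0585), and Gbe1 at -0.30 (adjusted p = 0.0528) for MLN4924 in hypoxia. It changed no other call of a member. Median-of-ratios scaling moved the share of called genes that rose from 41.5% to 52.0% for hypoxia in DMSO, from 41.4% to 50.3% for hypoxia in MLN4924 and from 40.7% to 51.1% for both treatments against neither. The cause of these moves was not tested.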
